A study of Mus musculus with 24 samples.

Results

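CD11b-positive, Ly6G-negative mononuclear cells of the lungs of naive mice were sorted into 2 populations, named MacB1-N and MacB2-N in the study, and their transcriptomes were compared here. MacB1-N cells were CD64 low and CD11c positive. MacB2-N cells carried an intermediate amount of CD64 and no CD11c. The comparison used the 3 MacB1-N and 3 MacB2-N libraries, 6 of the 24 libraries of the series, picked by their labels and by no measured value. The other 18 libraries came from a further naive population, MacA-N, and from MacA, MacB2 and MacB3 cells of mice 2 or 3 weeks after LLC-Luc lung carcinoma cells were injected into the left lung. They helped to choose the genes tested and to estimate the spread between replicates, and did not set the differences. Both groups compared came from uninjected male C57BL/6 mice aged 10 to 16 weeks, with no transgene and no drug named in the labels. All lung lobes of 3 to 5 perfused mice were pooled for each library, so a library stands for a pool and not for an animal.

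CD11b, the integrin alpha M chain, is carried by monocytes, by many tissue macrophages and by a subset of dendritic cells, and Ly6G marks neutrophils. CD64 is the high-affinity receptor for IgG and is used to tell macrophages and monocyte-derived cells from conventional dendritic cells. CD11c, the integrin alpha X chain, is high on dendritic cells and on alveolar macrophages and is also found on the Ly6C-low monocytes that patrol vessel walls. The lung holds Ly6C-high (classical) monocytes, which enter tissue in inflammation and can become macrophages or antigen-presenting cells, Ly6C-low (nonclassical) monocytes, interstitial macrophages and several kinds of dendritic cell. Dendritic cells that take up antigen mature, raise the chemokine receptor CCR7 and travel to lymph nodes, where they show peptides on MHC class II molecules to T cells.

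Levels are FPKM, fragments counted per transcript and scaled to its length and to the library's mapped fragments, as the authors deposited them. Differences are MacB1-N minus MacB2-N on the log2(FPKM + 1) scale, which understates changes of low genes, and are given with their standard error. A gene is called higher or lower where limma gave a Benjamini-Hochberg adjusted p under 0.05 over all 17156 genes tested and the difference was at least 2-fold; genes named below without such a call carry their values alone. Unless a sentence says otherwise, each gene named as higher or lower also passed in all 6 fits that left out 1 of the 6 libraries. Exempt from this are the second Ciita entry, Ifi47, H2-M2, H2-T24 and the H2-Q genes, for which those fits are not reported here.

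The genes of the sorting antigens served as a check of the labels. Itgax, which encodes CD11c (GRCm38 chr7:128129547-128150657, + strand), had 114, 103 and 92 FPKM in MacB1-N and 8.81, 5.54 and 7.65 FPKM in MacB2-N. Fcgr1, which encodes CD64 (chr3:96282909-96293969, - strand), had 9.01, 10.8 and 8.78 FPKM in MacB1-N and 76, 86.9 and 56.6 FPKM in MacB2-N. Neither gene's libraries overlapped between the populations. The log2 difference was 3.66 ± 0.24 for Itgax (adjusted p = 1.99e-08) and -2.80 ± 0.16 for Fcgr1 (adjusted p = 4.17e-09), in the directions in which the 2 proteins were gated. Itgam, which encodes CD11b, averaged 286 ± 62.6 FPKM in MacB1-N and 280 ± 75.1 FPKM in MacB2-N (SD, n = 3 each). Ly6g was listed at 0 in all 6 libraries. Siglecf, the remaining gene of this list, was not called, although every MacB1-N library was above every MacB2-N library. Its values are given below with the alveolar macrophage genes.

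**Figure D1:**
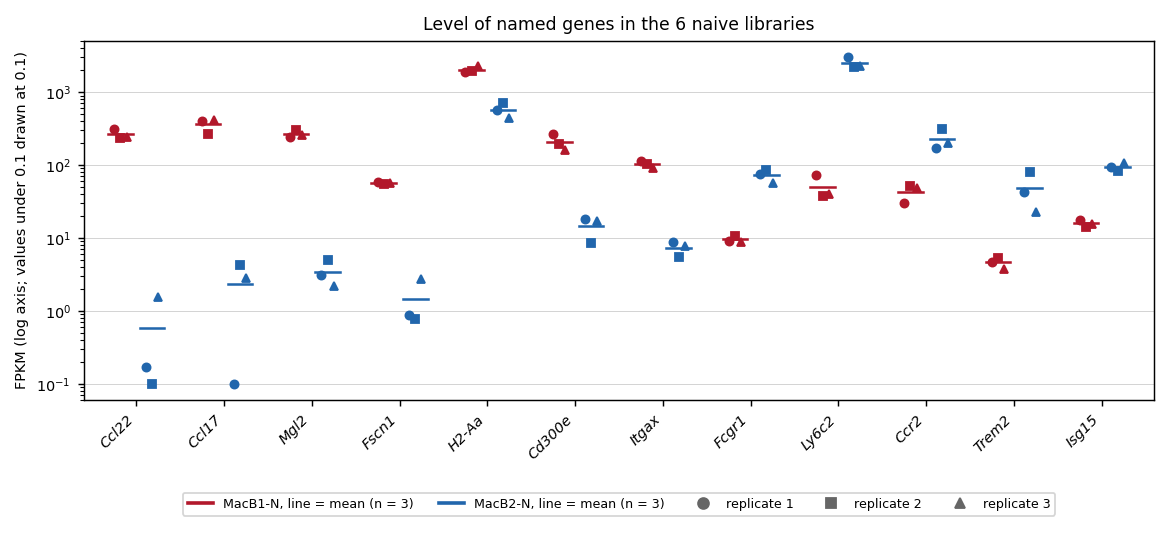
FPKM (log axis) of 12 genes in the 3 MacB1-N libraries (red, left of each pair) and the 3 MacB2-N libraries (blue, right); marker shapes are replicates and lines are group means. For each of the 12 genes the libraries of the populations do not overlap, and Ccl22, Ccl17 and Mgl2 lie between 239 and 411 FPKM in MacB1-N and between 0 and 5.05 FPKM in MacB2-N.

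Across the transcriptome 893 genes were called, 5.21% of those tested. MacB1-N was higher for 601 genes (3.50%) and lower for 292 (1.70%), and the median log2 difference over all tested genes was 0.09. Those shares are the background to the counts of called list members given below. The split was 423 higher and 422 lower after quantile normalization, and 765 higher and 200 lower with protein-coding sums made equal. The libraries of the populations did not overlap for 850 of the 893, where 22.2% of all tested genes had no overlap in either direction, and 865 of the 893 differed the same way in each of the 3 run lanes, which each held 1 library of each population, where 41.6% of all tested genes did so; the 893 were selected on these same libraries. MacB1-N was at least 4-fold higher for 175 called genes and at least 4-fold lower for 70. Leaving out MacB2-N replicate 3 gave 1393 calls and leaving out MacB2-N replicate 2 gave 606. With the 6 naive MacB libraries alone 268 genes passed, and with the run lane as a replicate block in those 6 libraries none did. In bulk samples such as these, fewer cells of a type and less RNA per cell cannot be told apart.

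The 6 libraries differed in ways that cross the groups. Pearson correlation between libraries of 1 group was 0.864 to 0.912 over the tested genes and that between MacB1-N and MacB2-N libraries was 0.832 to 0.886, so the ranges overlap. Each library correlated best with another of its own population, and replicate 3 of each population, both run in lane 7, correlated least with its fellows. Genes annotated as miRNAs held 72.7% of summed FPKM in MacB1-N replicate 3 and 70.9% in MacB2-N replicate 3, against 47.5% to 57.7% in the other 4 libraries. Protein-coding genes made up 25.8%, 27% and 16.9% of summed FPKM in MacB1-N and 19.6%, 21.4% and 18.1% in MacB2-N. Genes at 1 FPKM or more numbered 14054 ± 271 in MacB1-N and 13035 ± 406 in MacB2-N (SD, n = 3 each; exact permutation test, two-sided, p = 0.1, the smallest that 3 against 3 can give). Total read counts were not among the values used here; the smallest steps between low FPKM values put the depth of MacB2-N replicates 1 and 2 at 0.735 and 0.779 of that of MacB1-N replicate 1, and that of the other libraries at 1.01 to 1.04 of it.

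Genes of classical, Ly6C-high monocytes were lower in MacB1-N. Of the 16 tested, 11 were called lower and none higher, and the median log2 difference of the list was -2.21. Ly6c2, which encodes the Ly6C antigen itself (chr15:75108158-75111970, - strand), had 72.2, 38.2 and 39.9 FPKM in MacB1-N and 3034, 2218 and 2256 FPKM in MacB2-N, so that the highest MacB1-N library stood far below the lowest MacB2-N library. Its log2 difference was -5.66 ± 0.37 (adjusted p = 1.77e-08), the lowest among called genes with a symbol, other than predicted genes, clones, small RNAs and pseudogenes, that had separate libraries and at least 20 FPKM in the higher population. Ccr2, the receptor that brings monocytes out of bone marrow, was less far apart than Ly6c2, with 30.3, 51.1 and 48.7 FPKM in MacB1-N and 173, 315 and 198 FPKM in MacB2-N (-2.36 ± 0.24, adjusted p = 3.48e-06). Neither gene overlapped between the populations, and both differed the same way in every run lane; the Ly6c2 log2 difference was -5.37 in lane 2, -5.82 in lane 3 and -5.78 in lane 7.

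Among the other called members of the monocyte list were genes of clotting, matrix and microbial-recognition proteins. F13a1, the A chain of clotting factor XIII, averaged 9.95 ± 2.61 FPKM in MacB1-N and 153 ± 33.6 FPKM in MacB2-N (adjusted p = 2.61e-08). Fibronectin (Fn1), thrombospondin 1 (Thbs1) and versican (Vcan), secreted proteins of provisional matrix, had log2 differences of -2.69, -3.54 and -3.04, and Plac8 and Ms4a4c had -1.99 and -2.77. Haptoglobin (Hp) was called at -2.06 (adjusted p = 0.00985) but not without MacB1-N replicate 3 (adjusted p = 0.0628). Cd14, the co-receptor for lipopolysaccharide, was called at -1.61 (adjusted p = 0.024) and lost its call in 4 of the 6 fits with a library left out, those without MacB1-N replicate 1 or 3 or MacB2-N replicate 1 or 2, with an adjusted p of at most 0.13. Ly6c1, a near-identical neighbour of Ly6c2 that endothelial cells also express, went the other way without a call, at 139, 125 and 249 FPKM in MacB1-N and 37.8, 41.1 and 199 FPKM in MacB2-N; the labels and notes do not state how reads were split between these 2 genes.

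Genes of nonclassical, Ly6C-low monocytes were partly higher in MacB1-N. Of 18 tested, 7 were called higher and none lower, and the list's median log2 difference was 1.13; the count was 4 without MacB1-N replicate 1 or without MacB2-N replicate 2, up to 9 without MacB2-N replicate 1, and 2 with the 6 libraries alone. Cd300e, an activating receptor of monocytes (chr11:115051917-115062177, - strand), had 268, 192 and 163 FPKM in MacB1-N and 18.1, 8.57 and 17.3 FPKM in MacB2-N (3.77 ± 0.34, adjusted p = 8.2e-07). Dusp16, a phosphatase of stress kinases, averaged 127 ± 30 FPKM in MacB1-N and 25.5 ± 7 FPKM in MacB2-N (adjusted p = 1.71e-06), and Cd36, a scavenger and fatty acid receptor, averaged 137 ± 28.2 and 46.1 ± 19.9 FPKM in the same order (adjusted p = 0.00444). Ace, angiotensin-converting enzyme, had 912, 727 and 597 FPKM in MacB1-N and 352, 173 and 333 FPKM in MacB2-N; its call (1.42 ± 0.34, adjusted p = 0.0132) was lost without MacB1-N replicate 1 or without MacB2-N replicate 2, with an adjusted p of at most 0.0969.

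The regulator and the receptor most used to define nonclassical monocytes were not among the called genes. Nr4a1, the nuclear receptor that mouse Ly6C-low monocytes need, had 2779, 2478 and 1848 FPKM in MacB1-N and 2180, 1765 and 1564 FPKM in MacB2-N, with overlapping libraries (0.36 ± 0.41, adjusted p = 0.684). Cx3cr1, the fractalkine receptor, had 94.9, 100 and 70.4 FPKM in MacB1-N and 109, 112 and 99.9 FPKM in MacB2-N (-0.29 ± 0.21, adjusted p = 0.48). The 95% interval of the log2 difference ran from -0.50 to 1.22 for Nr4a1 and from -0.73 to 0.16 for Cx3cr1. Csf1r, the receptor for the main growth factor of monocytes and macrophages, averaged 524 ± 141 FPKM in MacB1-N and 523 ± 58.8 FPKM in MacB2-N (SD, n = 3 each).

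**Figure D2:**
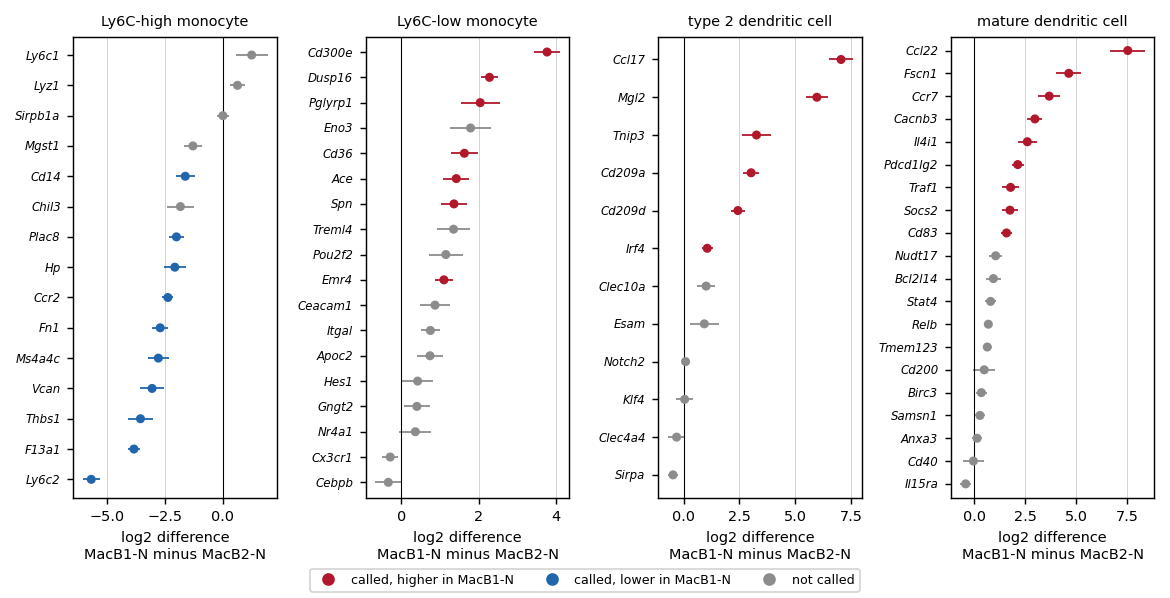
Log2 difference, MacB1-N minus MacB2-N, on log2(FPKM + 1), with its standard error as a bar, for tested members of 4 lists, not all of them drawn: Ly6C-high monocyte, Ly6C-low monocyte, type 2 dendritic cell and mature dendritic cell genes. Red members were called higher in MacB1-N, blue members lower and grey members were not called: 10 blue members stand in the first panel and 7, 6 and 9 red members in the others.

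By the same criteria, which leave out the predicted miRNA gene Gm22643 (791 FPKM in MacB1-N and listed at 0 in MacB2-N), the highest log2 differences were those of Ccl22 and Ccl17, chemokines that call in CCR4-bearing T cells and are made by dendritic cells and alternatively activated macrophages. Ccl22 (chr8:94745590-94751699, + strand) had 314, 239 and 244 FPKM in MacB1-N and 0.17, 0 and 1.56 FPKM in MacB2-N. Ccl17, its neighbour on the same strand (chr8:94810453-94812036), had 403, 271 and 411 FPKM in MacB1-N and 0, 4.24 and 2.79 FPKM in MacB2-N. Both were abundant in every MacB1-N library and at or near 0 in every MacB2-N library. The log2 differences were 7.52 ± 0.85 for Ccl22 (adjusted p = 1.11e-05) and 7.04 ± 0.52 for Ccl17 (adjusted p = 5.74e-08), and by run lane they ranged from 6.58 to 8.07 for Ccl22 and from 5.70 to 8.66 for Ccl17.

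Ccl17 belongs to a list of 12 genes of type 2 conventional or monocyte-derived dendritic cells, of which 6 were called higher and none lower (median 1.04). Mgl2, which encodes the galactose-binding lectin CD301b, had 244, 305 and 255 FPKM in MacB1-N and 3.1, 5.05 and 2.2 FPKM in MacB2-N (5.96 ± 0.48, adjusted p = 2.07e-07). Cd209a, a mouse relative of the lectin DC-SIGN, averaged 174 ± 49.6 FPKM in MacB1-N and 20.4 ± 4.69 FPKM in MacB2-N (3.02 ± 0.34, adjusted p = 1.17e-05), and Cd209d and Tnip3 were higher by 2.43 and 3.26 on the log2 scale. Irf4, the transcription factor that type 2 dendritic cells depend on, was called at 14 ± 2.76 FPKM in MacB1-N and 6.43 ± 2.78 FPKM in MacB2-N (1.06 ± 0.25, adjusted p = 0.0129); the call was lost without MacB1-N replicate 3 or MacB2-N replicate 1 or 2, where the adjusted p was at most 0.075. Klf4, Notch2 and Sirpa, also used for this subset, had log2 differences of 0.05, 0.09 and -0.47 and were not called.

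Genes of mature or migrating dendritic cells were higher for 9 of 20 tested members and lower for none (median 1.00). Ccr7, the receptor that guides cells to lymph nodes, had 81.1, 80.7 and 83.9 FPKM in MacB1-N and 6.36, 3.92 and 6.71 FPKM in MacB2-N (3.67 ± 0.53, adjusted p = 0.000153). Fscn1, which encodes the actin-bundling protein fascin of dendritic cell protrusions, had 57.9, 54.3 and 56.7 FPKM in MacB1-N and 0.866, 0.784 and 2.75 FPKM in MacB2-N (4.63 ± 0.62, adjusted p = 7.41e-05). The 3 MacB1-N libraries were close together for both genes and all lay above MacB2-N. Cacnb3, Il4i1, Pdcd1lg2, Socs2 and Cd83 were also higher, by 2.97, 2.60, 2.13, 1.75 and 1.58 on the log2 scale. Traf1 was higher by 1.78 (adjusted p = 0.0109) but not without MacB2-N replicate 2 (adjusted p = 0.0551). Cd40, a co-stimulatory receptor that also rises on maturation, averaged 39.9 ± 17.3 FPKM in MacB1-N and 39.5 ± 12 FPKM in MacB2-N.

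Of genes that conventional dendritic cells of all subsets share, none of 9 tested was called, although 8 of the 9 differences were positive (median 0.57). Flt3, the growth factor receptor of the lineage, had 4.92, 6.79 and 8.28 FPKM in MacB1-N and 4.85, 4.37 and 4.18 FPKM in MacB2-N (adjusted p = 0.409). Zbtb46, its lineage transcription factor, had 5.69, 14.4 and 9.89 FPKM in MacB1-N and 0.647, 3.86 and 5.14 FPKM in MacB2-N; the libraries did not overlap but the difference did not pass (1.51 ± 0.50, adjusted p = 0.0805). Of 8 tested genes of type 1 dendritic cells, 1 was higher and 1 lower (median 0.36). Xcr1, their chemokine receptor, averaged 0.434 ± 0.154 FPKM in MacB1-N and 0.425 ± 0.602 FPKM in MacB2-N and was too low to be tested. The higher member was Cd24a, a surface protein found on many other cells too, at 64.9 ± 14.5 FPKM in MacB1-N and 24.4 ± 6.61 FPKM in MacB2-N (adjusted p = 0.00213). Irf8, the transcription factor that type 1 dendritic cells and monocytes share, was lower in MacB1-N, at 24.9, 29.4 and 40.7 FPKM against 96, 79.8 and 97.6 FPKM in MacB2-N (-1.52 ± 0.22, adjusted p = 0.00013).

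Many MHC class II genes were higher in MacB1-N. Of 15 tested genes of the class II pathway, 8 were called higher and none lower, with a median log2 difference of 1.85; all 8 kept their call in each fit with a library left out, and 6 genes of the list were called with the 6 libraries alone. The alpha and beta chains of the antigen-presenting molecules took part: H2-Ab1 had 4312, 4197 and 4870 FPKM in MacB1-N and 1147, 1549 and 782 FPKM in MacB2-N (1.99 ± 0.32, adjusted p = 0.000441). H2-Eb1 had 2066, 2335 and 2306 FPKM in MacB1-N and 357, 461 and 243 FPKM in MacB2-N (2.70 ± 0.34, adjusted p = 3.45e-05). Cd74, the invariant chain that guides class II molecules to the peptide-loading compartment, had 10934, 7905 and 13985 FPKM in MacB1-N and 2941, 3169 and 2772 FPKM in MacB2-N. Every MacB1-N library was above every MacB2-N library for each of the 8 genes.

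The largest differences within the pathway were those of H2-O, which holds back the peptide editor H2-M. H2-Oa (chr17:34092340-34095234, + strand) had 48, 51.1 and 64.2 FPKM in MacB1-N and 1.97, 2.75 and 3.29 FPKM in MacB2-N (3.92 ± 0.47, adjusted p = 2.08e-05), and its partner chain H2-Ob averaged 30.3 ± 5.65 FPKM in MacB1-N and 3.46 ± 0.99 FPKM in MacB2-N (2.82 ± 0.47, adjusted p = 0.000655). The alpha chain of H2-M, H2-DMa, was not called, at 318 ± 96.5 FPKM in MacB1-N and 242 ± 56.5 FPKM in MacB2-N. Its 2 beta chain genes differed from each other: H2-DMb2 averaged 41.4 FPKM in MacB1-N and 5.27 FPKM in MacB2-N and was called, while H2-DMb1 averaged 84.3 and 65.4 FPKM and was not, but these genes are close copies and the split of reads between them is uncertain. Ciita, the master activator of class II transcription, had 12.7, 16.5 and 17.5 FPKM in MacB1-N and 9.93, 12.9 and 13.7 FPKM in MacB2-N, with overlapping libraries (0.33 ± 0.27, adjusted p = 0.53). The table lists Ciita under a second, weaker Ensembl ID as well, which averaged 2.26 FPKM in MacB1-N and 0.352 FPKM in MacB2-N and was called higher (1.31 ± 0.33, adjusted p = 0.018), and reads could be divided between the entries. Ctss, the protease that trims the invariant chain, was not called (-0.48, adjusted p = 0.171).

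None of the 18 genes of the class I pathway was called by limma (median -0.19, and 0.03 with protein-coding sums made equal). Of the 18, 2 had libraries that did not overlap, both lower in MacB1-N, where 8.20% of all tested genes were lower without overlap. B2m, the light chain of class I molecules, averaged 15080 ± 4768 FPKM in MacB1-N and 15244 ± 3067 FPKM in MacB2-N, and H2-K1 averaged 1301 ± 420 and 928 ± 167 FPKM in the same order (SD, n = 3 each). That list leaves out most nonclassical class I genes. Of 10 other tested genes with H2-Q, H2-T or H2-M symbols, looked at after their values were seen, 4 were higher, 1 was lower and 5 were not called. H2-Q5, H2-Q6 and H2-Q7 averaged 82.1, 85.1 and 99.5 FPKM in MacB1-N and 37.2, 24.9 and 42.5 FPKM in MacB2-N (adjusted p = 0.0428, 0.00216 and 0.00317), and as close copies they could share reads. H2-M2 averaged 6.68 FPKM in MacB1-N and 0.205 FPKM in MacB2-N (adjusted p = 0.000994), and H2-T24 averaged 13.5 and 29.4 FPKM in the same order (adjusted p = 0.041).

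RefSeq promoters (GRCm38.p6, 250 bases before to 50 after the start) were searched on both strands for the letters CTGATTGG, a Y box core of the kind that class II promoters are known for. It was found for 4 of the 6 called class II genes that matched an entry by symbol, for 0 of 4 that were not called, for 5 of 15 class I genes, and for 4.70% of all 27025 genes with an entry. The promoters of the 3 called class II genes with the smallest adjusted p among those holding the letters are shown, with the match in capitals, because these genes moved together. They lie on the + strand at chr17:34092129-34092428 (H2-Oa), chr17:34305617-34305916 (H2-Eb1) and chr17:34325425-34325724 (H2-Eb2), and the match begins at positions -46, -62 and -103 from the start.
H2-Oa: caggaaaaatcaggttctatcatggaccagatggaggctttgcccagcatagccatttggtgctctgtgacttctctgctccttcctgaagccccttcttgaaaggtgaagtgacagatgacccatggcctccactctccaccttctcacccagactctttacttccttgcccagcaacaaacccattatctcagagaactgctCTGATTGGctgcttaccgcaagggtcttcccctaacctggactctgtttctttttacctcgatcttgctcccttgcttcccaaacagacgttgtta
H2-Eb1: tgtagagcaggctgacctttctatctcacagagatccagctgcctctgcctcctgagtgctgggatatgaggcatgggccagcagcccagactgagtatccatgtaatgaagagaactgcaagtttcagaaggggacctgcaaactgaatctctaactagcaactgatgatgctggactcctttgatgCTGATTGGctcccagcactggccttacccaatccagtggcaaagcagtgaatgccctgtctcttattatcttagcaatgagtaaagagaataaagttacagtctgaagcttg
H2-Eb2: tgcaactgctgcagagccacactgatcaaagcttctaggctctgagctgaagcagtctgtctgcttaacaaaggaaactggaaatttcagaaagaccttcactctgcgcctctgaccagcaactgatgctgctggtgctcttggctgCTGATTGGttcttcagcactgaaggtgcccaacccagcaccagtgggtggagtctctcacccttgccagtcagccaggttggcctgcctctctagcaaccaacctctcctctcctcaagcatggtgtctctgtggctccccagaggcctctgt

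Genes induced by type I interferon were lower in MacB1-N. Of 43 tested, 30 were called lower and none higher, the median log2 difference was -1.39, and 38 of the 43 had MacB1-N libraries that all lay below the MacB2-N libraries, where 8.20% of all tested genes did so. The count of lower members was 25 to 30 in the fits that left out a library and 11 with the 6 libraries alone. Isg15, a ubiquitin-like protein that interferon strongly induces, had 17.9, 14 and 15.5 FPKM in MacB1-N and 93.8, 83.4 and 107 FPKM in MacB2-N (-2.51 ± 0.30, adjusted p = 2.18e-05). Irf7, the transcription factor that amplifies the interferon response, had 186, 137 and 70.5 FPKM in MacB1-N and 757, 550 and 342 FPKM in MacB2-N (-2.09 ± 0.35, adjusted p = 0.000733). Neither gene's libraries overlapped between the populations.

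The members of this list with the smallest adjusted p included the Schlafen genes and nucleic acid sensors. Slfn1 averaged 9.34 ± 3.23 FPKM in MacB1-N and 96.4 ± 14.6 FPKM in MacB2-N (-3.27 ± 0.28, adjusted p = 4.51e-07), and Slfn5 averaged 39.4 ± 8.99 and 184 ± 29 FPKM in the same order (-2.20 ± 0.21, adjusted p = 1.15e-06). Ifi205 and Ifi204, related to the DNA sensor AIM2, had log2 differences of -3.75 and -2.26, and Oasl2 had -2.66. Ifi205 had 1.43, 0.882 and 1.38 FPKM in MacB1-N and 43.6, 24.4 and 22.5 FPKM in MacB2-N, so it was almost at the floor in the CD11c-positive cells. The Ifi200, Schlafen, Oas and Ifit genes are families of close copies, and the notes do not say how the authors' counting divided reads within them.

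Of the transcription factors that carry the interferon signal, Irf9 and Stat2 were not called. Irf9 averaged 39.6 FPKM in MacB1-N and 69 FPKM in MacB2-N (adjusted p = 0.307) and Stat2 averaged 7.19 and 13 FPKM in the same order (-0.76, adjusted p = 0.0374 with less than a 2-fold difference). Guanylate-binding proteins and immunity-related GTPases, which interferon gamma induces, were mostly not called: 2 of 14 tested members were lower, none was higher, and the median was -0.25. The 2 were Gbp3, at 7.42 ± 0.561 FPKM in MacB1-N and 33.3 ± 6.02 FPKM in MacB2-N, and Irgm1, at 18.2 ± 3.55 and 53.6 ± 4.24 FPKM (adjusted p = 0.000416 and 0.000113). Ifi47, an immunity-related GTPase that the list does not hold, was lower too, at 8.98 FPKM in MacB1-N and 41.8 FPKM in MacB2-N (-2.11 ± 0.24, adjusted p = 1.42e-05).

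The letters GAAA, any 2 bases and GAAA again, the core of the interferon-stimulated response element that interferon-activated complexes bind, were looked for in the same promoter windows on both strands; no match overlapped a match of the Y box letters. They were found for 14 of 23 called members of the type I list with an entry, for 5 of 9 members that were not called, for 9 of 9 GTPase genes and for 3.99% of all 27025 genes. Called and uncalled members thus held the letters at similar shares. Shown are the promoters of the 3 called members with the smallest adjusted p among those holding the letters, at chr11:82951852-82952151 on the + strand (Slfn5), chr1:174031706-174032005 on the - strand (Ifi205) and chr4:156200769-156201068 on the - strand (Isg15), with 1, 2 and 3 matches in capitals, overlapping matches running together.
Slfn5: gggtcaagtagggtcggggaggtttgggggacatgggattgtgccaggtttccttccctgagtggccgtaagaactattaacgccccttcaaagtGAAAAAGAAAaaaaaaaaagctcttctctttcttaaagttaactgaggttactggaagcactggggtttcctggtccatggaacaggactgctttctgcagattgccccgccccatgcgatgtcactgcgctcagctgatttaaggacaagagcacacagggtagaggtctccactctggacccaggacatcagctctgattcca
Ifi205: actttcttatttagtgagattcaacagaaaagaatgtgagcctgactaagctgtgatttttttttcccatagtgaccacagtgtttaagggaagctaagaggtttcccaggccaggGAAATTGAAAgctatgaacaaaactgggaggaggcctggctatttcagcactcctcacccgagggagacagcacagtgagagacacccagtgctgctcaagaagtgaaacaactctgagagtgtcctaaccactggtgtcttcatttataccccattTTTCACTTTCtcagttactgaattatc
Isg15: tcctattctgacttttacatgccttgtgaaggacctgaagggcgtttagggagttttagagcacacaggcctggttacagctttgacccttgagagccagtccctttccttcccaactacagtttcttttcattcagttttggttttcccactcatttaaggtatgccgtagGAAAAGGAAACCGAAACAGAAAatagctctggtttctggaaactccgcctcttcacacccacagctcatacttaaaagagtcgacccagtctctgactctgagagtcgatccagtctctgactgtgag

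**Figure D3:**
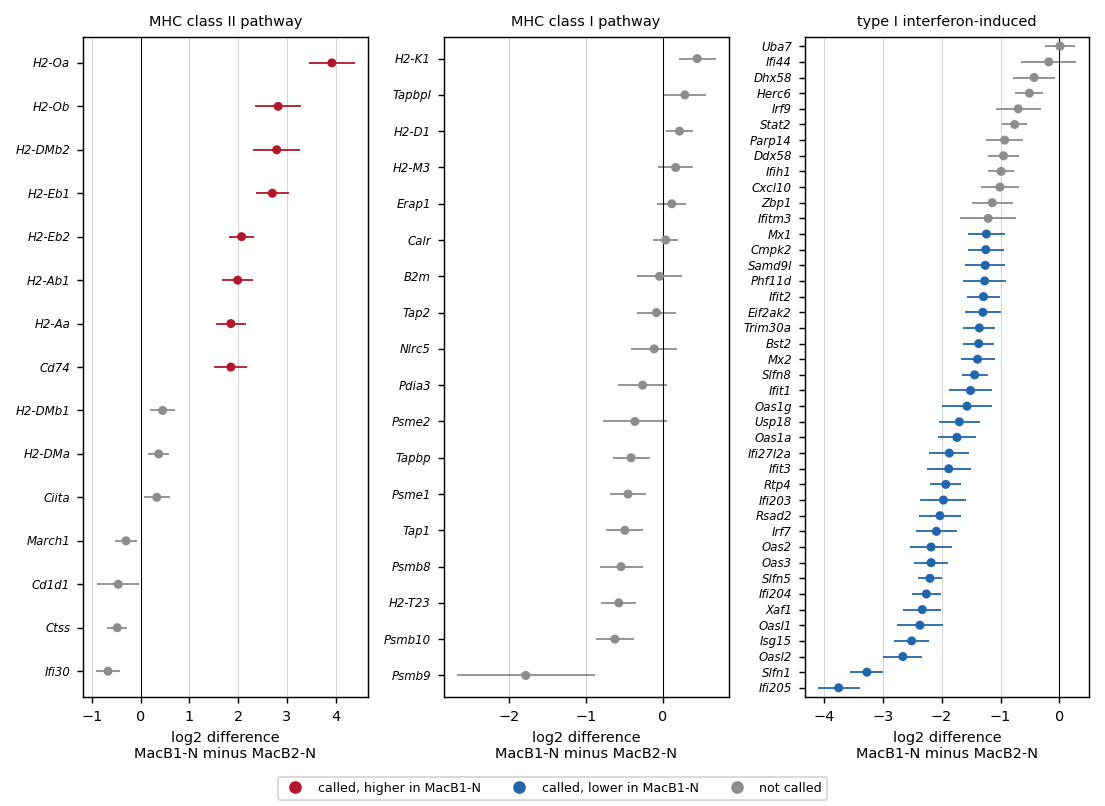
Log2 difference, MacB1-N minus MacB2-N, on log2(FPKM + 1), with its standard error as a bar, for tested members, not all of them drawn, of the MHC class II pathway, the MHC class I pathway and the type I interferon-induced list. Red members were called higher in MacB1-N, blue members lower and grey members were not called: 8 class II genes are red, no class I gene is coloured and 30 interferon-induced genes are blue.

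Transcription factors divided between the populations. Of 51 tested, 7 were called higher and 6 lower. Maf, a factor of macrophage differentiation, averaged 10.3 ± 2.42 FPKM in MacB1-N and 36.4 ± 2.73 FPKM in MacB2-N (-1.75 ± 0.17, adjusted p = 1.76e-06). Ahr, the aryl hydrocarbon receptor, averaged 21.1 ± 5.93 FPKM in MacB1-N and 60.5 ± 12 FPKM in MacB2-N (adjusted p = 0.000453). Among the higher factors, Bhlhe40, a repressor that controls cytokine output, had 354, 458 and 417 FPKM in MacB1-N and 87.1, 67.3 and 104 FPKM in MacB2-N (2.25 ± 0.23, adjusted p = 3.48e-06). Etv3 was higher by 2.25 as well, at 85 ± 19.2 FPKM in MacB1-N and 17 ± 3.37 FPKM in MacB2-N (adjusted p = 3.53e-06), and Pparg, the fatty acid-sensing nuclear receptor of alveolar macrophages and of alternatively activated cells, averaged 42.7 ± 6.06 and 10.5 ± 3.88 FPKM (adjusted p = 0.000564). Spi1, which encodes PU.1, the factor all these lineages need, averaged 817 ± 222 FPKM in MacB1-N and 1067 ± 328 FPKM in MacB2-N and was not called.

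Genes of lung interstitial macrophages gave no common direction: 2 of 16 tested were higher, 3 were lower and the median was -0.23. Beside Maf, Trem2, a lipid-sensing receptor of tissue macrophages, was lower, with 4.73, 5.39 and 3.71 FPKM in MacB1-N and 43, 79.7 and 22.9 FPKM in MacB2-N (-2.98 ± 0.38, adjusted p = 4.26e-05). The scavenger receptor Cd163 and the mannose receptor Mrc1 were higher, at 9.84 ± 1.68 and 36.1 ± 13.9 FPKM in MacB1-N and 2.09 ± 1.07 and 8.03 ± 2.64 FPKM in MacB2-N. The complement component genes C1qa, C1qb and C1qc were not called, and C1qb averaged 65 ± 13 FPKM in MacB1-N and 44.9 ± 8.55 FPKM in MacB2-N. Mertk, the apoptotic cell receptor often used to define lung macrophages, had 2.88, 4.05 and 12.7 FPKM in MacB1-N and 1.67, 1.02 and 6.97 FPKM in MacB2-N and was not called.

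Other chemokine genes divided as well. Of 30 chemokine ligand genes tested, 5 were higher and 2 lower. Cxcl16, a membrane-bound chemokine for CXCR6, had 67.8, 94.6 and 103 FPKM in MacB1-N and 10.9, 10.5 and 13 FPKM in MacB2-N (2.83 ± 0.22, adjusted p = 1.01e-07), and Ccl5 had 215, 172 and 176 FPKM in MacB1-N and 34.8, 11.5 and 23.6 FPKM in MacB2-N (3.07 ± 0.32, adjusted p = 4.68e-06). Cxcl13, the B cell chemokine, was lower, at 0.13, 1.16 and 0 FPKM in MacB1-N and 7.07, 7.18 and 4.65 FPKM in MacB2-N. The calls of Cx3cl1 (higher) and Ccl6 (lower) were each lost in 5 of the 6 fits with a library left out, all except that without MacB2-N replicate 3, with adjusted p up to 0.162 and 0.188. Among 28 receptors for chemoattractants tested, 4 were higher and 1, Ccr2, was lower; beside Ccr7 they included S1pr5, the sphingosine phosphate receptor of patrolling monocytes, at 68.3 ± 16.6 FPKM in MacB1-N and 19.1 ± 5.91 FPKM in MacB2-N (adjusted p = 0.000368).

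Of 16 tested surface molecules that act on T cells, 5 were higher and 2 lower in MacB1-N. Tnfsf9, the ligand of 4-1BB, had 332, 337 and 462 FPKM in MacB1-N and 41.4, 58.9 and 55.9 FPKM in MacB2-N (2.83 ± 0.30, adjusted p = 4.26e-06). Cd274, which encodes the inhibitory ligand PD-L1, had 44.2, 42.6 and 35.2 FPKM in MacB1-N and 7.64, 4.72 and 10.7 FPKM in MacB2-N (2.32 ± 0.26, adjusted p = 9.86e-06), and Icosl averaged 38.3 ± 2.08 and 12.6 ± 4.02 FPKM (adjusted p = 0.000653). All 3 were higher in every MacB1-N library. Cd86 and Cd80, the ligands of CD28, were not called, and Cd86 averaged 107 ± 26 FPKM in MacB1-N and 106 ± 7.65 FPKM in MacB2-N. The gene listed as 4632428N05Rik, named Vsir in GENCODE, which encodes the inhibitory molecule VISTA, was lower, at 1069, 879 and 709 FPKM in MacB1-N and 2502, 3129 and 1734 FPKM in MacB2-N (-1.45 ± 0.28, adjusted p = 0.00248), and Lgals9, which encodes galectin-9, was lower by -1.64 ± 0.17 (adjusted p = 3.53e-06).

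Receptors for IgG differed in both directions. Fcgr4, the activating receptor carried by Ly6C-low monocytes, had 432, 287 and 199 FPKM in MacB1-N and 118, 62.6 and 60.8 FPKM in MacB2-N (1.91 ± 0.29, adjusted p = 0.000235), whereas Fcgr3 had 201, 156 and 191 FPKM in MacB1-N and 416, 454 and 342 FPKM in MacB2-N (-1.14 ± 0.17, adjusted p = 0.000279). Together with Fcgr1, 2 of 11 tested Fc receptor genes were lower and 4 were higher; the inhibitory receptor Fcgr2b averaged 298 ± 82 FPKM in MacB1-N and 360 ± 147 FPKM in MacB2-N and was not called. Fcrls, a scavenger-type relative, had 56.5, 51.4 and 64.4 FPKM in MacB1-N and 1.41, 3.01 and 2.5 FPKM in MacB2-N (4.17 ± 0.47, adjusted p = 1.12e-05). Klrb1b, a lectin of the natural killer receptor family, had 119, 123 and 84.3 FPKM in MacB1-N and 0.283, 1.13 and 1.39 FPKM in MacB2-N (5.85 ± 0.72, adjusted p = 2.67e-05).

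Some genes for sensing and killing microbes were lower in MacB1-N. Of 32 genes of Toll-like receptors and other sensors, 5 were lower and none higher (median -0.44), among them Tlr5, which senses flagellin, at 1.19 ± 0.491 FPKM in MacB1-N and 10 ± 4 FPKM in MacB2-N, and Tlr9, which senses DNA, at 50.4 ± 4.86 and 123 ± 26.4 FPKM (adjusted p = 0.000189 and 0.000131). Of 27 granule and antimicrobial genes, 7 were lower and 1 higher (median -0.69). Lyz2, the lysozyme of phagocytes and among the most abundant transcripts here, had 2243, 2074 and 2137 FPKM in MacB1-N and 7522, 9883 and 6439 FPKM in MacB2-N (-1.86 ± 0.28, adjusted p = 0.000235). Slpi, a secreted protease inhibitor, averaged 14 ± 1.84 FPKM in MacB1-N and 64.4 ± 7.32 FPKM in MacB2-N (adjusted p = 0.00145). The lysosomal genes Ctsc, Ctse and Npc2 were lower, 3 of 35 tested with none higher. None of 23 genes of the phagocyte oxidase and antioxidant systems was called, and 7 of the 23 (3 higher, 4 lower in MacB1-N) had libraries that did not overlap, as had 22.2% of all tested genes.

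Some genes best known from neutrophils were lower in MacB1-N. Of 15 tested neutrophil genes, 4 were lower and none higher, while 9 of the differences were positive and 6 negative (median 0.12). Cd177, a surface protein of neutrophils, had 3.41, 3.12 and 2.56 FPKM in MacB1-N and 75.5, 103 and 78.6 FPKM in MacB2-N (-4.42 ± 0.22, adjusted p = 3.77e-10). Mmp8, neutrophil collagenase, had 0.726, 0.662 and 1.94 FPKM in MacB1-N and 26, 51 and 21.8 FPKM in MacB2-N, and Padi4, which citrullinates histones, averaged 2.7 ± 3.65 and 21.7 ± 3.88 FPKM. The defining neutrophil genes were not called: S100a8 had 23.3, 52.1 and 9.91 FPKM in MacB1-N and 13, 15.8 and 5.96 FPKM in MacB2-N, Cxcr2 averaged 0.938 ± 0.366 and 1.04 ± 0.96 FPKM, and Ly6g and Mrgpra2b were at 0 in all 6 libraries. The summed level of the neutrophil list was 138 to 270 FPKM in MacB1-N and 401 to 500 FPKM in MacB2-N. Much of that sum was Csf3r, which averaged 98.3 FPKM in MacB1-N and 206 FPKM in MacB2-N.

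Some genes of DNA replication and mitosis were higher in MacB1-N. Of 33 replication genes, 10 were higher and none lower (median 0.57), and of 32 mitosis genes, 9 were higher and 1, Racgap1, was lower (median 0.81); the Racgap1 call was lost without MacB1-N replicate 2 or MacB2-N replicate 1, with an adjusted p of at most 0.0856. Without MacB2-N replicate 2 the counts of higher genes were 7 and 5, and after quantile normalization 5 and 6. With the 6 naive MacB libraries alone they were 1 and 3. Top2a, the topoisomerase of dividing cells, had 9.77, 10.5 and 13.8 FPKM in MacB1-N and 0.63, 3.31 and 2.64 FPKM in MacB2-N (2.05 ± 0.34, adjusted p = 0.000539). The replication helicase genes Mcm5 and Mcm6 and the DNA ligase gene Lig1 were higher by 1.29, 1.56 and 1.71 on the log2 scale. Mki67, the proliferation marker, had 9.75, 13.2 and 9.84 FPKM in MacB1-N and 1.35, 0.996 and 1.9 FPKM in MacB2-N; it passed with all libraries (adjusted p = 0.0104) but not without MacB2-N replicate 2 (adjusted p = 0.0512). Pcna, the sliding clamp of DNA polymerase, averaged 88.8 ± 11.4 FPKM in MacB1-N and 99.5 ± 14.6 FPKM in MacB2-N and was not called. Immediate-early genes, which dissociation and sorting can also induce, were not uniform: 6 of 28 were higher and none lower (2 without MacB2-N replicate 2), with Egr3 at 59.7 ± 20.3 FPKM in MacB1-N and 8.31 ± 4.95 FPKM in MacB2-N (adjusted p = 0.000417) and Fos at 848 ± 175 and 1446 ± 335 FPKM, not called.

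**Figure D4:**
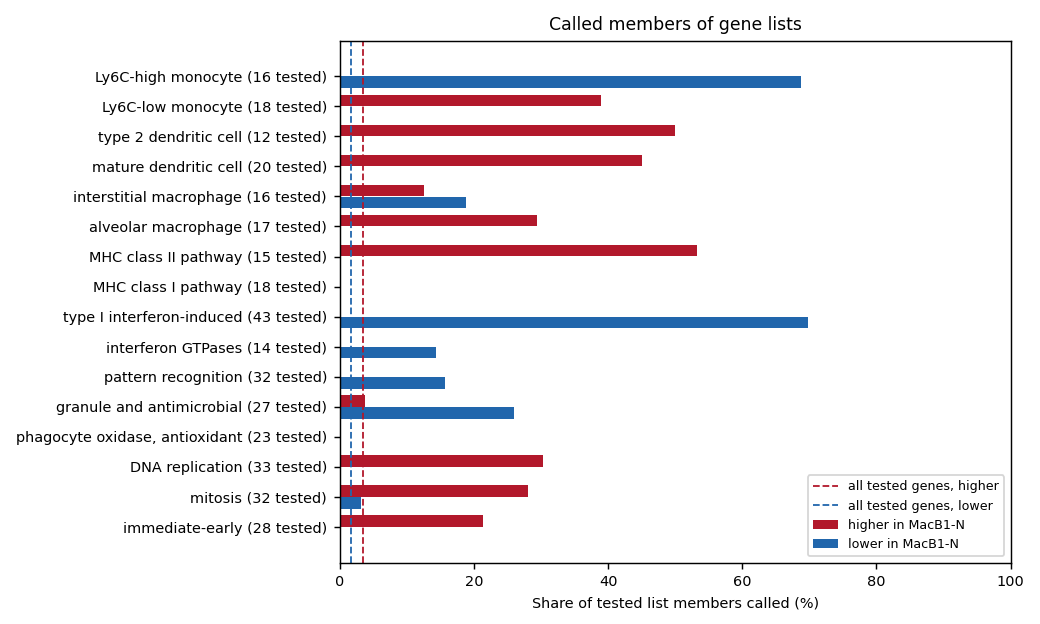
Share of the tested members of 16 gene lists that were called higher (red, upper bar) or lower (blue, lower bar) in MacB1-N than in MacB2-N, in percent; the number tested stands beside each name. Dashed lines mark the shares over all 17156 tested genes, 3.50% higher and 1.70% lower.

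Secreted factors and proteases differed gene by gene. Of 37 cytokine and growth factor genes, 3 were higher and 4 lower, where 3.50% of all tested genes were higher and 1.70% lower. Il12b, the p40 subunit of interleukins 12 and 23, had 2.66, 4.35 and 3.58 FPKM in MacB1-N against 0 in each of the 3 MacB2-N libraries (adjusted p = 4.07e-06). Osm, oncostatin M, and Tgfbi, a matrix protein induced by TGF-beta, were lower by -2.16 and -1.84, while Il1b averaged 1545 ± 523 FPKM in MacB1-N and 1554 ± 673 FPKM in MacB2-N. Mmp12, macrophage elastase, had 23.4, 30.2 and 43.8 FPKM in MacB1-N and 0.87, 0.802 and 0.869 FPKM in MacB2-N (4.13 ± 0.52, adjusted p = 3.45e-05). Il1rl1, the interleukin 33 receptor, had 9.39, 21.7 and 23.8 FPKM in MacB1-N and 7.14, 0.16 and 0.1 FPKM in MacB2-N; its call (adjusted p = 0.027) was lost in 4 of the 6 fits with a library left out, those without replicate 2 or 3 of either population, with an adjusted p of at most 0.137.

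Marker sums of several other lung cell types were higher in MacB1-N, mostly without calls for single genes. The summed level of 16 endothelial genes was 1057, 1102 and 1342 FPKM in MacB1-N and 366, 387 and 1053 FPKM in MacB2-N, where replicate 3 stood with the MacB1-N libraries. None of the 16 was called, all 16 differences were positive (median 1.09), and 7 were called without MacB2-N replicate 3. The fibroblast list summed to 522, 438 and 660 FPKM in MacB1-N and 163, 126 and 465 FPKM in MacB2-N, with no call among 13 genes, and the epithelial list had none among 14. Its sum was almost all Scgb1a1, the club cell secretory protein, which was among the highest transcripts of both populations at 12684, 7494 and 2742 FPKM in MacB1-N and 10211, 7856 and 2834 FPKM in MacB2-N. T cell genes summed to 44.6, 41.3 and 70 FPKM in MacB1-N and 10.8, 17.1 and 24.8 FPKM in MacB2-N, with Cd3e at 5.72, 6.26 and 13.7 FPKM in MacB1-N and 0.695, 3.02 and 3.75 FPKM in MacB2-N, and Il7r was the called gene among 13. Outside that list, the T cell receptor gene Trac was called higher, at 9.22 FPKM in MacB1-N and 0.396 FPKM in MacB2-N (limma adjusted p = 0.0424). Trbv13-2 was called too, at 2.9 and 0 FPKM in the same order (adjusted p = 0.0336). Of 9 tested B cell genes 2 were higher, and of 6 natural killer cell genes 1 was, with none lower (medians 0.14 and 0.49). The B cell sums overlapped between the populations. The part of these cells in the results above was not tested.

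Alveolar macrophage genes were higher in MacB1-N for 5 of 17 tested, with none lower and a median of 1.32. Ear2, a ribonuclease, averaged 448 ± 81.3 FPKM in MacB1-N and 113 ± 12.4 FPKM in MacB2-N (1.97 ± 0.25, adjusted p = 4.05e-05), and Abcg1, a cholesterol exporter, averaged 70.4 ± 17.2 and 29.1 ± 4.11 FPKM (adjusted p = 0.000283); with Pparg these were the members that kept their call with each library left out, while Plet1 and Cidec each lost theirs in 4 of the 6 fits: both without MacB1-N replicate 3, MacB2-N replicate 2 or MacB2-N replicate 3, Plet1 also without MacB2-N replicate 1 and Cidec without MacB1-N replicate 2, with adjusted p up to 0.205 and 0.178. The defining genes Marco and Siglecf were low, at 1.55, 2.44 and 14.1 FPKM and 4.92, 2.07 and 8.77 FPKM in MacB1-N, and at 0.864, 0.726 and 3.41 FPKM and 0.0879, 1.3 and 1.44 FPKM in MacB2-N. In MacA-N cells the same genes averaged 306 ± 93.8 FPKM (Marco) and 231 ± 70 FPKM (Siglecf; SD, n = 3). MacB1-N replicate 3 was the highest library for both genes and for Plet1, at 96.6 FPKM against 27.5 and 21.1 FPKM in the other MacB1-N libraries, and the part of alveolar macrophages in these differences was not tested.

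**Figure D5:**
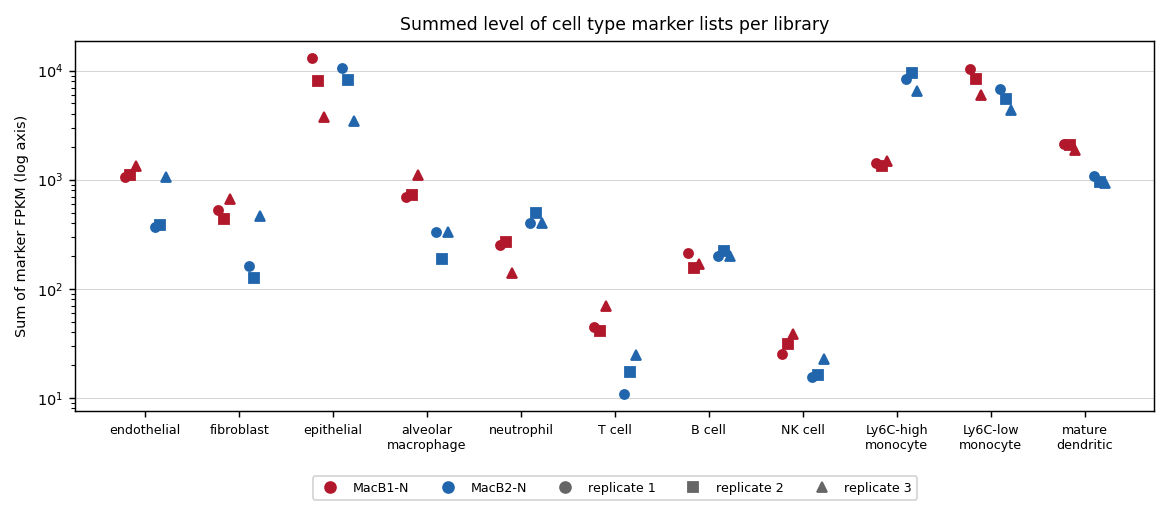
Summed FPKM (log axis) of cell type marker lists in each MacB1-N library (red, left) and each MacB2-N library (blue, right), with marker shapes for replicates. Endothelial sums run from 1057 to 1342 FPKM in MacB1-N and from 366 to 1053 FPKM in MacB2-N, and Ly6C-high monocyte sums from 1346 to 1482 FPKM in MacB1-N and from 6527 to 9452 FPKM in MacB2-N.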

How the data were processed

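RNA of sorted mouse lung cells was sequenced from 24 libraries of 8 groups; the 3 MacB1-N and 3 MacB2-N libraries are compared here. The values are FPKM, deposited by the authors as 1 table of 37979 genes. Per the submitters' processing notes, FastQC, TopHat2 and Cufflinks 2.0.2 were used with mm10; the annotation, strand setting and read counts are not given in the sources used here. Per the labels' protocols, libraries were made from total RNA with a NuGen kit.

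The 17156 genes whose mean reached 1 FPKM in 1 or more of the 8 groups were tested with limma 3.58.1 in R 4.3.3 on log2(FPKM + 1), with a pseudocount of 1, 1 mean per group over all 24 libraries, an empirical Bayes trend and Benjamini-Hochberg adjustment over all genes tested; the code was tested on simulated data. FPKM are not counts, so no count model was used. Per the series' design text, the 3 libraries of a group came from separate experiments, each on pooled mice. Replicates 1, 2 and 3 were run in lanes 2, 3 and 7 in both groups, so the numbers pair libraries by run lane; same-numbered libraries' deviations from their group means correlated at 0.0844, 0.0305 and 0.21. Gene positions are from GENCODE M21 (GRCm38) by Ensembl ID, promoters from RefSeq. The members and gene lists were chosen with earlier results of these data known, so lists are described by counts and medians and were not tested. Genes were named by a rule: sorting antigens and set members of each list, up to 6 called members each way with the smallest adjusted p and up to 3 uncalled members with the highest level, the 15 highest and 15 lowest differences, and the most abundant genes. H2-DMb1, H2-DMb2, the H2-Q, H2-T and H2-M genes outside the lists, the second Ciita entry, Gm22643, Ifi47, Stat2 and Irf9 fall outside it and were chosen after their values were seen. 1021 of 1028 list entries matched the table. Some list members are counted but not reported here by name.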

Additional observations from a re-analysis of the deposited data

How the results depend on the processing

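The call count depended most on how the spread was estimated: the 6 naive MacB libraries alone gave 268 calls (171 higher, 97 lower in MacB1-N; 243 shared with the 893), and the same 6 with the replicate block gave 0 (0 higher, 0 lower) with limma, while 3312 genes had an unadjusted p under 0.05 there; the replicate block over all 24 libraries gave 891 and over the 15 MacB libraries 871. With the 6 libraries alone, 4 type 2 and 6 mature dendritic cell genes were called higher. So were 1 alveolar macrophage gene and 1 immediate-early gene. There, 6 Ly6C-high monocyte genes, 1 sensor gene and 2 granule and antimicrobial genes were called lower. A pseudocount of 5 gave 502 (291 higher) over all genes. Without a fold minimum 474 genes were lower. Leaving out 1 library gave 606 to 1393 calls (388 to 903 higher, 218 to 490 lower), lowest without MacB2-N replicate 2 and highest without MacB2-N replicate 3; 444 of the 893 were called in all 6 of these fits. Leaving out both lane 7 libraries, chosen after seeing the data, gave 856. The split of higher and lower was 423 and 422 after quantile normalization, which moved the median of all genes by -0.11, and 765 and 200 with protein-coding sums made equal, which moved it by 0.17. The share of FPKM from protein-coding genes, 3.53 percentage points higher in MacB1-N, was 1.66 to 6.7 points higher with a library left out.

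Of 195 called genes among the 457 named, 139 were called in all 6 leave-one-out fits. All settings run except the 6-library fits called 123, and the 6 libraries alone called 83. None of the 195 changed sign, but they were selected for large differences on these same libraries, so this says little. Sign changes among the uncalled named genes numbered 166. Depth per library is unknown beyond its relative steps, so low genes, and those listed at 0, are the least certain.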

Other observations

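Several genes with the highest differences belong to none of the lists. Mt2, a metal-binding metallothionein, had 200, 184 and 84.6 FPKM in MacB1-N and 8.85, 8.36 and 3.14 FPKM in MacB2-N (4.34 ± 0.41, limma adjusted p = 1.26e-06). Retnla, a secreted protein of alternatively activated macrophages, had 552, 419 and 413 FPKM in MacB1-N and 26.7, 27.8 and 17.5 FPKM in MacB2-N (4.22 ± 0.90, adjusted p = 0.0057). In both genes every MacB1-N library was above every MacB2-N library. Nccrp1 averaged 20.5 FPKM in MacB1-N and 0.551 FPKM in MacB2-N (adjusted p = 2.08e-05). Flrt3, an adhesion protein of the leucine-rich repeat kind, is listed under 2 Ensembl IDs, with 24.7 and 22.8 FPKM in MacB1-N and 1.25 and 0.383 FPKM in MacB2-N, and reads could be divided between them.

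At the low end, Mnda, an interferon-inducible nuclear protein of myeloid cells, had 6.61, 4.64 and 3.52 FPKM in MacB1-N and 91.4, 52.2 and 59.8 FPKM in MacB2-N (-3.53 ± 0.24, adjusted p = 2.86e-08). Tarm1, an activating receptor of myeloid cells, averaged 1.74 FPKM in MacB1-N and 23.7 FPKM in MacB2-N (adjusted p = 8.98e-05), and Pabpc1l, a poly(A)-binding protein known from oocytes, averaged 0.866 and 22.7 FPKM in the same order (adjusted p = 8.98e-05).

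The most abundant protein-coding transcript in both populations was Alox5ap, which leukotriene synthesis needs, at 34988, 23204 and 16194 FPKM in MacB1-N and 75566, 78482 and 35093 FPKM in MacB2-N; the libraries did not overlap, but the difference narrowly missed the threshold (-1.33 ± 0.40, adjusted p = 0.0543). Its partner enzyme gene Alox5 was higher in MacB1-N, at 21.3 ± 1 FPKM against 8.31 ± 3.41 FPKM in MacB2-N (adjusted p = 0.00809; adjusted p = 0.0554 without MacB2-N replicate 1). Of called genes, 768 were protein coding, 5.81% of the protein-coding genes tested, and 5 of 160 tested miRNA genes (3.12%) were called.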
